A study of Mus musculus with 5 samples.

Results

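The genes described here encode the subunits of the mitochondrial respiratory chain and of ATP synthase. They were taken by gene symbol alone, as the names beginning with Nduf (followed by a, b, c, s or v), Sdha to Sdhd, the names beginning with Uqcr, Cyc1, the names beginning with Cox and a digit from 4 to 8, and the names beginning with Atp5. Among 19938 genes with a probe set assigned to exactly 1 symbol, 90 matched, with 115 probe sets. Of these, 83 encode subunits or their isoforms and 7 (Ndufaf1 to Ndufaf7) encode assembly factors of complex I that share the prefix. Where a gene had several probe sets, the brightest stands for it.

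RNA was measured on Affymetrix whole-transcript arrays in the liver of 5 male wildtype C57BL/6N mice, aged 5 to 6 months, 1 array per mouse. All 5 had been injected on 5 successive days with 65 mg/kg of streptozotocin, which destroys pancreatic beta cells, at an age of 10 to 16 weeks. From 2 weeks later they ate chow with bezafibrate, a fibrate that activates PPAR receptors, for 8 weeks, at 0.25% or 0.5% by weight, with no statement of which mouse got which. Every mouse belongs to the same group, with no untreated liver for comparison, so the values show levels and differences between individual livers and no effect of either compound. The mice are numbered 1 to 5 as in the labels, which call them biological replicates.

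Complex I (NADH dehydrogenase) and complex II (succinate dehydrogenase) pass electrons to ubiquinone, complex III (cytochrome bc1) passes them on to cytochrome c, and complex IV (cytochrome c oxidase) to oxygen. Complexes I, III and IV pump protons, and complex V (ATP synthase) makes ATP as protons flow back. Most subunits are encoded in the nucleus and some in mitochondrial DNA, except in complex II, whose subunits are all nuclear. Several subunits of complex IV exist as a ubiquitous or liver form and a form of heart and muscle, lung or testis. Transcription of nuclear subunit genes is known to involve the factors NRF1 and GABP, the latter of the ETS family, and coactivators of the PGC-1 family.

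Because these genes are known for shared promoter elements, the stretch of 250 bases before the start of each gene was searched in the RefSeq promoter table (build GRCm38.p6). It held a window for 73 of the 90 genes. The NRF1-type letters (GCGCA, then any base, then GCGC), read on both strands, were found in 13 of the 73 (17.8%), against 4.23% of 27025 genes with a window and 5.84% of 17491 protein-coding genes. The ETS-type letters CCGGAAG, also on both strands and able to share at most 1 base with the former, were in 13 of the 73 (17.8%), against 7.83% of all genes and 10.2% of protein-coding genes. The letters TCAAGGTCA, on both strands, bound by estrogen-related receptors, were in 1 of the 73 and in 0.422% of all genes. A match of letters is a description and shows no bound factor. Among tested subunits, the NRF1-type letters were in 5 of 31 genes of complex I, 2 of 3 of complex II, 0 of 5 of complex III, 1 of 12 of complex IV and 4 of 15 of complex V, and 3 genes held both the NRF1-type and the ETS-type letters.

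To show what such a match looks like, the bases around the first match (capitals) are printed 5′ to 3′ on the strand of the gene, for the subunit of each complex that varied most between mice among those with the letters. They lie on the minus strand at chr13:73328483-73328518 (Ndufs6), chr13:74350309-74350358 (Sdha), chr5:115349091-115349140 (Cox6a1) and chr11:115420031-115420080 (Atp5h) of GRCm38.p6, all upstream of the annotated start.
Ndufs6: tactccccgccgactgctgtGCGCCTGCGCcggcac
Sdha: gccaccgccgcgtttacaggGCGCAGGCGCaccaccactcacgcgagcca
Cox6a1: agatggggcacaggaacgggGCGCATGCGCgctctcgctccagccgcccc
Atp5h: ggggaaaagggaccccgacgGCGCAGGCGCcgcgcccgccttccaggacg
The match begins 16 bases before the start in Ndufs6, 98 in Sdha, 162 in Cox6a1 and 141 in Atp5h. In Ndufs6 the letters were met on the opposite strand.

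The deposited values are log2 signals, so that a difference of 1 is 2-fold. As a brightness floor, each array was given the value that 95% of its 1210 olfactory or vomeronasal receptor probe sets stayed under, which lay between 5.59 and 6.07. Of the 90 genes, 87 exceeded it on all 5 arrays, against 60.0% of all genes. The floor was highest on the array of mouse 4, on which 76.0% of the receptor probe sets had their highest value. Pearson's r between arrays, across probe sets that are not independent, was 0.971 to 0.993. The hepatocyte markers Alb, Ttr, Apoa1 and Cyp2e1, all 4 measured, exceeded the floor on all arrays, with an average level of 13.37 to 13.45 by mouse.

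Respiratory chain transcripts were nearly level across the 5 livers. The median span from the lowest to the highest mouse was 1.14-fold for the 82 tested subunits, and 58 of them spanned less than 1.2-fold. Over all 13336 tested genes the median span was 1.22-fold, and over 4081 other genes with a mean level between 8.46 and 12.28, the 10th and 90th percentile of the subunits, it was 1.2-fold. These, called the other genes as bright below, share only the range of level. Most lie in its lower part, while many subunits lie in its upper part. The SD expected at a level, used below, fell from 0.12 for Ndufb3 (mean 8.45) to 0.081 for Ndufc2 (mean 12.31), so these spans are not matched for level. Tested means that the average over mice exceeded 5.77, the same percentile of the receptor averages, and 88 of the 90 genes did.

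To ask whether any gene differed more between livers than genes of its level usually do, the variance over the 5 mice was compared with the variance expected at that level (limma's robust fit with an upper-tail F test, Benjamini-Hochberg adjustment over 14586 probe sets). None of the 88 tested members was called at an adjusted p of 0.05, against 0.357% of all tested probe sets. At an unadjusted p under 0.05 the limma fit gave 1 member (1.14%), against 6.34% of all probe sets. The smallest limma adjusted p of a member was 0.699 (Ndufs4). The ratio of observed to expected variance had a median of 0.696 over the subunits, against 0.931 over all tested genes and 0.961 over the other genes as bright. It exceeded 1 in 28 of 82 subunits (34.1%), against 47.0% of all tested genes. By complex the median ratio was 0.709 for I, 0.948 for II, 0.624 for III, 0.817 for IV and 0.597 for V. Nothing shows that the livers come from separate litters or cages, and the p-values describe the spread of these samples only.

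**Figure D1:**
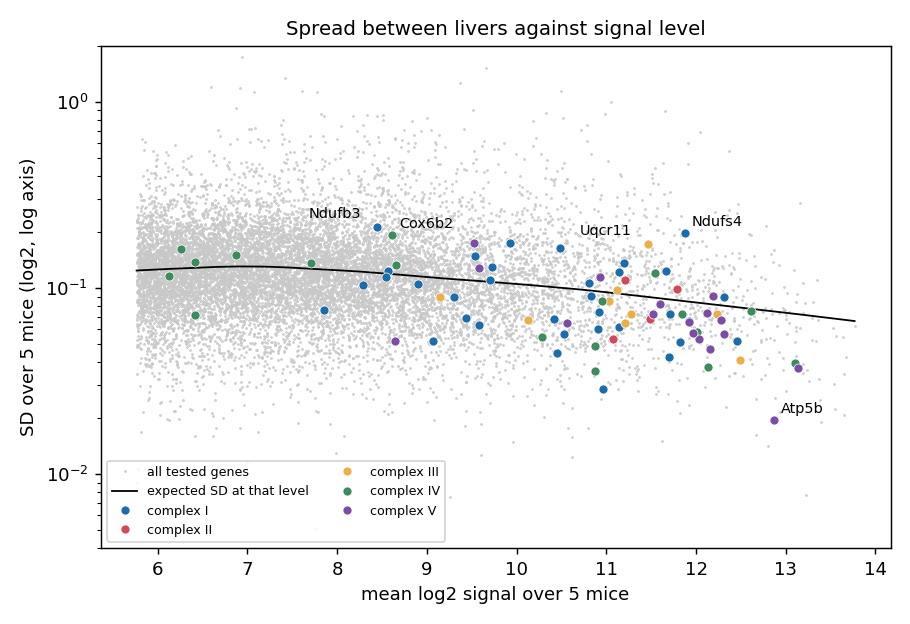
Standard deviation over the 5 mice (log2, log axis) against the mean log2 signal for all tested genes (grey) and the respiratory chain subunits by complex (colours), with the SD expected at each level (line). Most subunits lie below the line, Ndufs4, Ndufb3, Uqcr11 and Cox6b2 lie above it, and Atp5b has the smallest SD of the subunits, 0.020.

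Within this narrow band all 5 complexes had their lowest average in the same liver. Each gene was centred on its own mean over the 5 livers, and the deviations were averaged within a complex. In mouse 5 this average was at -0.0943 for complex I (34 tested subunits), -0.111 for II (4), -0.0592 for III (9), -0.0238 for IV (18) and -0.0669 for V (17). Mouse 2 was highest in complexes I, III and V (0.0673, 0.0558 and 0.0409), mouse 1 in complex II (0.0593) and mouse 3 in complex IV (0.0191). When arrays were centred on their medians, complexes III and IV were lowest in mouse 4 instead. From the lowest to the highest mouse the average moved by 1.12-fold in complex I, 1.13-fold in II, 1.08-fold in III and V and 1.03-fold in IV.

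The small movement of complex IV changed with its tissue-specific forms and with the scaling. With all 18 genes the distance between the lowest and highest mouse was 0.0429, which became 0.106 with arrays centred on their medians (mouse 4 lowest) and 0.0969 against the other genes as bright (mouse 2 lowest). Without the 7 tested tissue isoforms, the remaining 11 genes of complex IV averaged 0.0023, 0.0382, 0.0431, -0.0199 and -0.0638 in mice 1 to 5, a 1.08-fold span. The tissue isoforms alone, with Ndufa4l2 counted among them, averaged 0.0415, -0.0644, -0.0187, 0.0025 and 0.0391. This average was above the mean in mouse 5 and lowest in mouse 2. Single genes were divided in mouse 5, where 4 of the 7 lay below their own mean. Those above were Cox6b2 (0.243), Ndufa4l2 (0.152) and Cox8c (0.0624). Counting Ndufa4 with complex IV or with complex I left mouse 5 lowest in both. Without mouse 5, the distance between the lowest and highest mouse fell from 0.171 to 0.0845 in complex II, from 0.162 to 0.108 in complex I, and from 0.108 to 0.046 in complex V. Because mouse 5 was lowest in each, leaving it out could only shorten the distance.

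**Figure D2:**
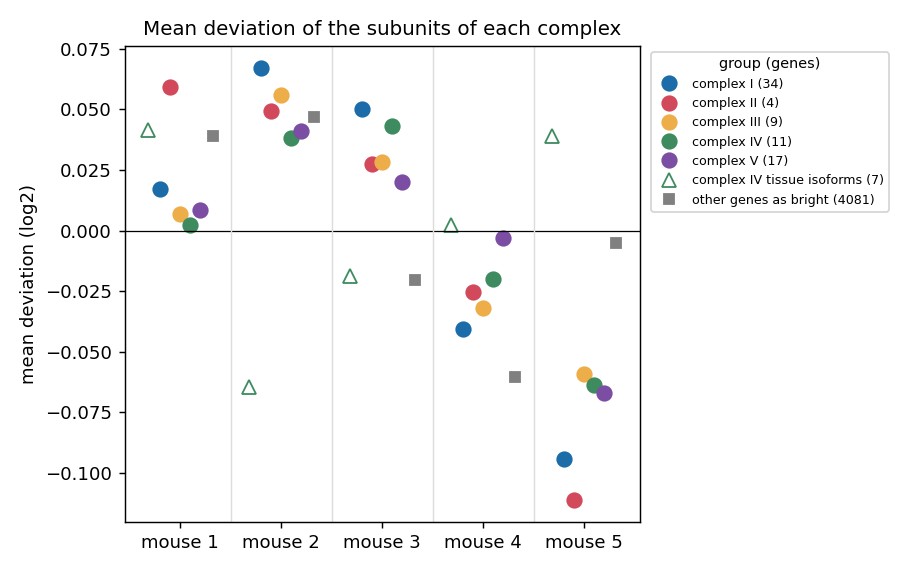
Mean deviation (log2) of the tested subunits of each complex from their own means, by mouse, with complex IV divided into its 11 other genes (filled) and its 7 tissue isoforms (open triangles), and the other genes as bright (grey squares). In mouse 5 the filled points lie between -0.111 and -0.0592 while the other genes average -0.0052.

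Counting genes gave the same picture. Of the 82 tested subunits, 42 (51.2%) had their lowest value in mouse 5, against 21.6% of all tested genes and 25.0% of the other genes as bright. By complex these were 18 of 34 in I, 3 of 4 in II, 5 of 9 in III, 6 of 18 in IV and 10 of 17 in V, and none of the 7 tissue isoforms. In mouse 5, 66 of the 82 lay below their own mean. The highest value was in mouse 2 for 26 of 82 (31.7%), against 25.5% of all tested genes and 31.6% of the other genes as bright, so this share is near the background. The count was 46 with arrays centred on their medians, 9 with each array set against the other genes as bright, and 40 without mouse 3. Another 26 were highest in mouse 3, against 22.9% of all tested genes and 16.3% of the other genes as bright. Genes of mitochondrial ribosomal proteins, another large nuclear-encoded set, were lowest in mouse 5 in 21 of 77 cases (27.3%) and in mouse 4 in 35 (45.5%). Mouse 4 was lowest for 36.5% of all tested genes and 35.5% of the other genes as bright. For the respiratory subunits without tissue isoforms the shares in mice 5 and 4 were 42 of 75 (56.0%) and 18 of 75 (24.0%). That mouse 5 was lowest for such genes was known when the genes were chosen, and the genes are not independent, so these counts carry no test.

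**Figure D3:**
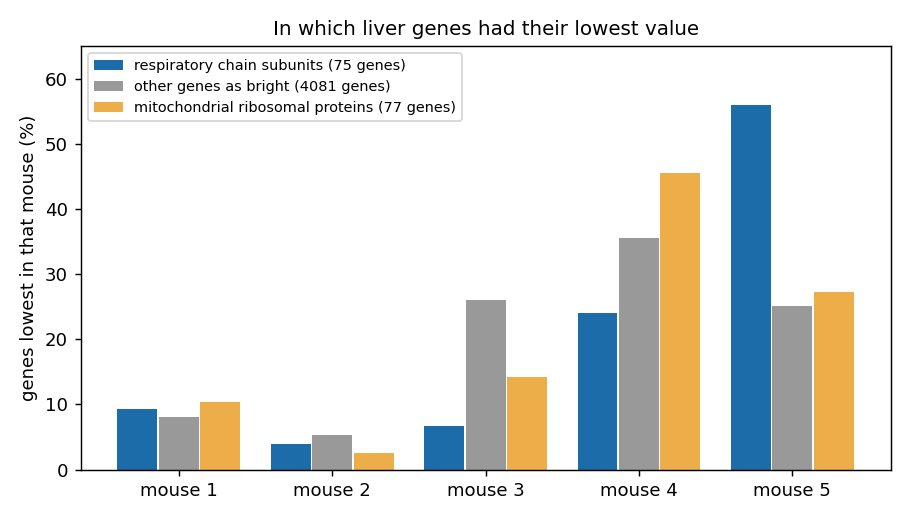
Share of genes (percent) that had their lowest value in each mouse, for the respiratory chain subunits without tissue isoforms (75), other genes as bright (4081) and mitochondrial ribosomal proteins (77). In mouse 5 the respiratory bar reaches 56.0%, the others 25.0% and 27.3%.

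In a bulk liver, fewer cells of a type and less RNA per cell cannot be told apart. In mouse 5 the 4 hepatocyte markers deviated by -0.0416 on average and the 2 measured erythroid markers by -0.2995. The erythroid average was lower still in mouse 4 (-0.3345). The averages of the 6 stellate and 5 endothelial markers in mouse 5 were -0.0285 and -0.0248. For the 9 skeletal muscle, 5 heart, 5 testis and 6 adipocyte markers they were -0.142, -0.0886, -0.0834 and -0.018. Those of the 7 Kupffer cell and macrophage markers and the 4 measured cholangiocyte markers were 0.124 and 0.102. Their part in the lower subunit values of mouse 5 was not tested. The other genes as bright had a median deviation of -0.0004 in mouse 5, and with these medians subtracted from each array 48 of the 82 subunits were lowest in mouse 5. With arrays centred on their own medians the count was 33, so it depends on the scaling.

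Complex I supplied the most genes and those with the largest spread. The core subunits carry the flavin and iron-sulfur centres or line the quinone site. Ndufv1, whose product binds FMN and oxidises NADH, was 11.11, 11.22, 11.19, 11.14 and 11.06 in mice 1 to 5 (SD 0.062). Ndufs1, the largest iron-sulfur subunit, was 9.71, 9.85, 9.68, 9.72 and 9.54 (SD 0.11). Ndufs7, near the quinone site, was 12.46, 12.48, 12.52, 12.39 and 12.43 (SD 0.052). Mouse 5 was lowest in Ndufv1 and Ndufs1 and mouse 4 in Ndufs7. Together the 6 measured core genes (also Ndufv2, Ndufs3 and Ndufs8) averaged -0.0124, 0.0733, 0.0579, -0.0117 and -0.107, and all 6 lay below their mean in mouse 5. The 28 accessory subunits averaged 0.0237, 0.066, 0.0488, -0.0469 and -0.0916.

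The widest genes of complex I were accessory. Ndufb3, of the membrane arm, was 8.57, 8.71, 8.48, 8.28 and 8.18, a 1.44-fold span (SD 0.21, expected 0.12, limma adjusted p = 0.964). Ndufs4, whose loss causes complex I deficiency, was 12.00, 12.15, 11.74, 11.79 and 11.68, a 1.38-fold span (SD 0.20, expected 0.085, limma adjusted p = 0.699). Ndufs6, which like Ndufs4 belongs to the NADH-oxidising arm, was 10.05, 10.06, 9.95, 9.93 and 9.63 (SD 0.18, limma adjusted p = 0.976). The patterns were not alike: in Ndufs4 mice 1 and 2 stood above the other 3, whereas in Ndufs6 mouse 5 alone lay below the rest. Ndufa9, also an accessory subunit, ranged from 10.24 in mouse 5 to 10.70 in mouse 2. At the other end, Ndufa3 was 10.93, 10.96, 10.96, 11.01 and 10.96 (SD 0.029).

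The remaining accessory genes of complex I did not share 1 order of mice. Of the 34 tested genes of the complex, 18 were lowest in mouse 5, 10 in mouse 4 and 2 each in mice 1, 2 and 3. The share in mouse 5 was 52.9%, against 21.6% of all tested genes. The share in mouse 4 was 29.4%, below the 36.5% of all tested genes and 35.5% of the other genes as bright. Ndufab1, the mitochondrial acyl carrier protein that also sits in complex I, was 10.83, 10.87, 10.93, 10.85 and 10.68, with mouse 5 lowest (SD 0.09). Ndufb8, of the membrane arm, was 9.65, 9.52, 9.72, 9.35 and 9.46, with mouse 4 lowest (SD 0.15). The genes lowest in mouse 4 were Ndufs7, Ndufv3, Ndufa1, Ndufa7, Ndufa8, Ndufa11, Ndufa13, Ndufb2, Ndufb7 and Ndufb8. Ndufa6 and Ndufa12 were lowest in mouse 2, Ndufa10 and Ndufb6 in mouse 3, and Ndufv2 and Ndufa3 in mouse 1.

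The 7 assembly factors caught by the prefix are not part of the finished enzyme. Ndufaf5 lay below the floor on all arrays (5.11 to 5.58) and was not tested. The 6 tested had mean levels from 7.09 (Ndufaf6) to 10.18 (Ndufaf1), and their average was lowest in mouse 5 (-0.068) and highest in mouse 2 (0.0811). Single genes did not share that order, with 2 of the 6 lowest in mouse 5 (Ndufaf1 and Ndufaf3), 2 in mouse 1 (Ndufaf2 and Ndufaf6) and 2 in mouse 3 (Ndufaf4 and Ndufaf7).

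In complex II all 4 subunits are encoded in the nucleus, and all 4 lay below their mean in mouse 5. The flavoprotein gene Sdha was 11.84, 11.84, 11.87, 11.79 and 11.62 in mice 1 to 5 (SD 0.099), with mouse 5 apart from the rest. The iron-sulfur subunit gene Sdhb was 11.34, 11.29, 11.19, 11.18 and 11.05 (SD 0.11). Among the membrane anchors, Sdhc was 11.11, 11.16, 11.04, 11.04 and 11.04 (SD 0.053), with mice 3, 4 and 5 nearly level. Sdhd was 11.53, 11.48, 11.58, 11.46 and 11.40 (SD 0.068).

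In complex III, 7 of the 9 genes lay below their mean in mouse 5. Cyc1, which encodes cytochrome c1, was 11.18, 11.22, 11.19, 11.15 and 11.32, and was thus highest in mouse 5 (SD 0.065). Uqcrfs1, the Rieske iron-sulfur protein gene, was 9.16, 9.29, 9.04, 9.15 and 9.11, lowest in mouse 3 (SD 0.089). The other 7 genes averaged -0.0855 in mouse 5, and 5 of them were lowest there; a difference between the redox subunits and the rest was not tested. The core protein gene Uqcrc1 was 11.28, 11.40, 11.27, 11.23 and 11.22 (SD 0.072). Uqcr11, for a small accessory subunit, had the largest spread at 11.56, 11.55, 11.66, 11.28 and 11.29 (1.30-fold, SD 0.17, expected 0.09, limma adjusted p = 0.882). In Uqcr11 mice 4 and 5 lay apart below mice 1 to 3, and its second, dimmer probe set showed the same division, with 10.59 and 10.54 against 10.80 to 10.96. Uqcrh was 11.15, 11.21, 11.20, 11.05 and 10.99 (SD 0.098), with the same division on a smaller scale. Uqcrc2, the other core protein gene, had the smallest spread, at 12.52, 12.54, 12.45, 12.48 and 12.45 (SD 0.041). Uqcrb alone was lowest in mouse 1, at 12.16, and highest in mouse 4, at 12.35.

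The 11 genes of complex IV other than tissue isoforms had a median SD of 0.058, against 0.074 over all subunits. Cox4i1, the regulatory subunit found in most tissues, was 10.92, 10.88, 10.90, 10.85 and 10.83 (1.06-fold, SD 0.036). Cox5a was 10.29, 10.35, 10.31, 10.25 and 10.21 (SD 0.054), and Cox5b, which binds zinc, was 12.18, 12.15, 12.08, 12.15 and 12.14 (SD 0.038). Mouse 5 was lowest in Cox4i1 and Cox5a and mouse 3 in Cox5b. Ndufa4, named for complex I but found in cytochrome c oxidase and counted with it here, was 10.94, 11.07, 11.01, 10.92 and 10.84 (SD 0.085).

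**Figure D4:**
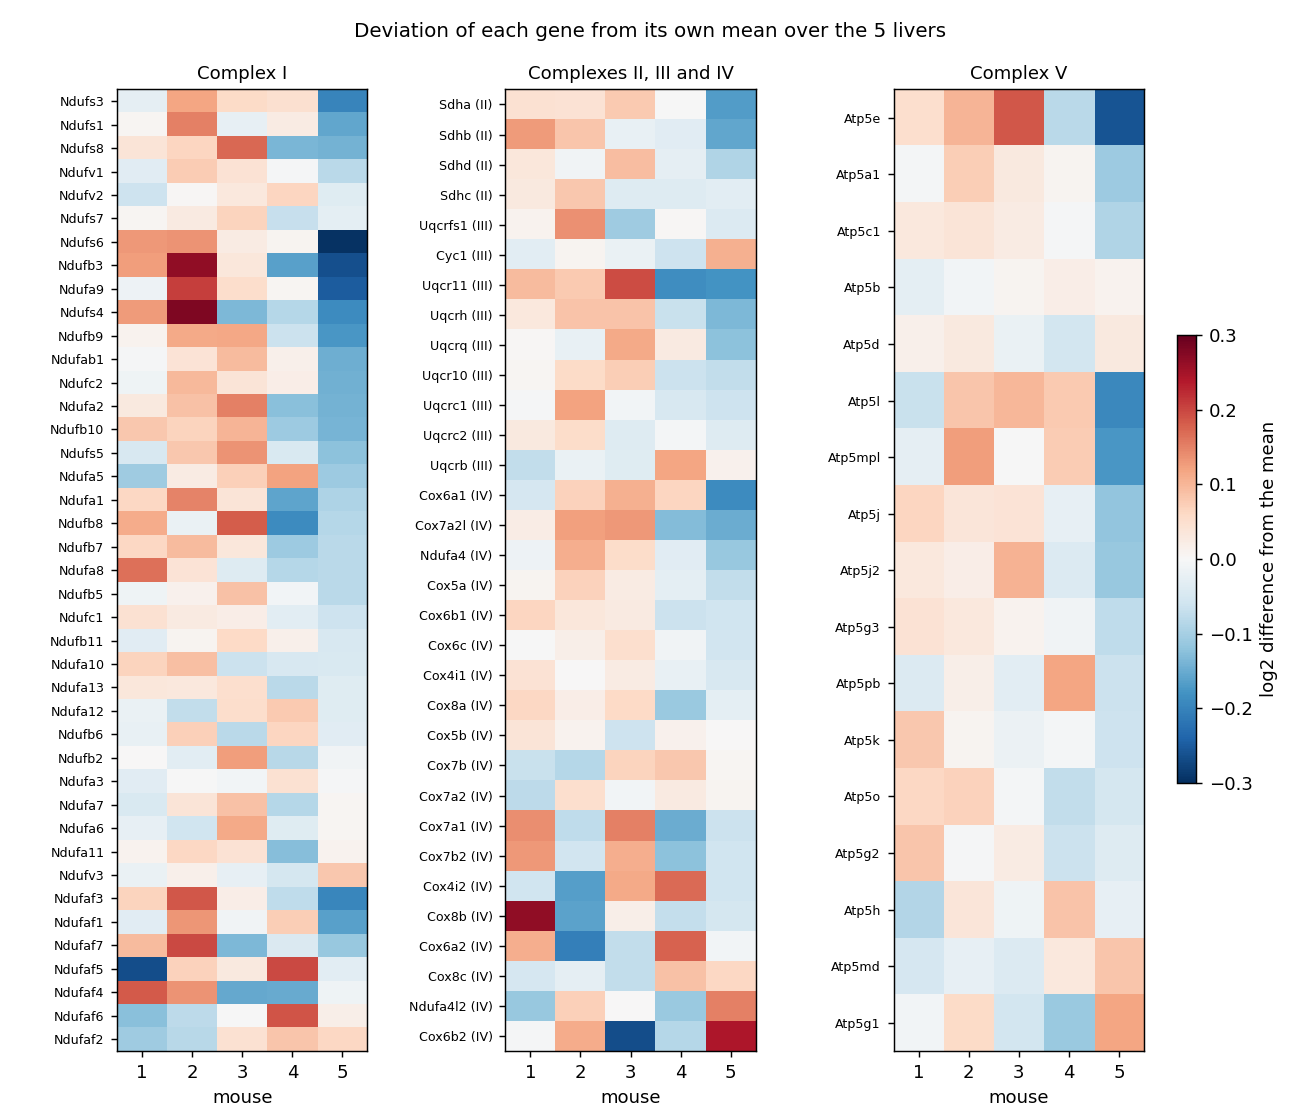
Deviation of each of the 90 genes from its own mean (log2, red above and blue below), with mice 1 to 5 as columns, ordered within each complex by kind (core or F1, accessory or Fo, tissue isoforms, assembly factors) and then by the deviation in mouse 5. The column of mouse 5 is blue for most genes, and red for Cyc1, Cox6b2, Ndufa4l2, Atp5g1, Atp5md and Ndufv3, which were highest there.

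Isoform families were read against the floor, since brightness is not comparable from one probe set to another. The ubiquitous or liver forms Cox4i1, Cox6a1, Cox6b1, Cox7a2, Cox7b and Cox8a exceeded the floor of their array by 4.78 to 6.96. The 8 tissue forms include Ndufa4l2, an Ndufa4-like gene counted with them. Of the 8, 6 exceeded the floor on all arrays. With the floor raised to the 99th percentile of the receptors, 3 of these (Cox6a2, Cox6b2 and Cox7a1) still did.

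The heart and muscle forms lay in different places. Cox7a1 was 7.85, 7.63, 7.86, 7.56 and 7.65 in mice 1 to 5, above the floor by 1.49 to 2.26 (SD 0.14). Cox6a2 was 6.99, 6.67, 6.80, 7.05 and 6.87, above it by 0.97 to 1.40 (SD 0.15). Cox8b was 6.53, 6.10, 6.28, 6.19 and 6.21, above it by 0.11 to 0.94 (SD 0.16), with mouse 1 highest. Their liver partners were steady or moved otherwise. Cox6a1 was 11.49, 11.61, 11.65, 11.61 and 11.36 (SD 0.12), lowest in mouse 5. Cox7a2 was 10.80, 10.93, 10.87, 10.91 and 10.89 (SD 0.049), and Cox8a 11.91, 11.87, 11.91, 11.74 and 11.82 (SD 0.073).

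Of the skeletal muscle markers, 5 were tested, with 0 called and 4 at an unadjusted p under 0.05 in the limma fit, against 0.357% and 6.34% of all tested probe sets. Acta1 was 7.86, 6.93, 7.08, 7.38 and 7.24, Ckm 7.29, 6.44, 6.62, 6.63 and 6.44, and Mb 7.496, 6.57, 6.69, 6.78 and 6.58 in mice 1 to 5, all 3 highest in mouse 1 (limma adjusted p = 0.479, 0.493 and 0.398). Of the 9 muscle markers, 5 exceeded the floor on all arrays, Myh4 and Mylpf lay below it on all, and the average level of the 9 was 5.93 to 6.53 by mouse. Their part in the levels of Cox6a2, Cox7a1 and Cox8b was not tested. Of the 5 heart markers, 3 exceeded the floor on all arrays, with an average level of 6.20 to 6.41 by mouse. Of the 6 markers of brown and white adipocytes, 2 exceeded it on all arrays, Cidea at 11.58 to 11.87 and Plin1 at 6.16 to 6.54. Another 3 (Ucp1, Adipoq and Lep) lay below it on all. The average level of the 6 was 6.33 to 6.44 by mouse, raised by the bright Cidea.

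Among the testis forms, Cox6b2 was well above the floor. It was 8.61, 8.72, 8.34, 8.52 and 8.85, above the floor by 2.45 to 3.12, with the largest spread of complex IV (1.42-fold, SD 0.193, expected 0.12, limma adjusted p = 0.986). It was highest in mouse 5 and lowest in mouse 3, whereas its partner Cox6b1 was 12.08, 12.05, 12.04, 11.95 and 11.96 (SD 0.058). Cox8c was 6.37, 6.39, 6.34, 6.50 and 6.48, above the floor by 0.43 to 0.78. Cox7b2 was 4.34, 4.15, 4.32, 4.09 and 4.15, below the floor on all arrays, against 12.54, 12.53, 12.68, 12.69 and 12.62 for Cox7b. The testis markers Tnp1 and Cyct, the latter the germ cell form of cytochrome c, lay below the floor on all arrays as well, Prm2 exceeded it on all (6.54 to 6.73), and the average of the 5 testis markers was 5.26 to 5.44 by mouse.

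The lung form Cox4i2, which is raised by low oxygen, was 6.35, 6.25, 6.53, 6.58 and 6.35, above the floor by 0.51 to 0.77. Ndufa4l2, another gene raised by low oxygen, was 6.02, 6.20, 6.13, 6.02 and 6.28 and fell below the floor in mouse 4. The array of mouse 4 had the highest floor, so its dim values have the least room above background. Cox7a2l, a Cox7a relative known as a supercomplex factor, was counted here among the genes of complex IV other than tissue isoforms. It was 8.68, 8.78, 8.79, 8.53 and 8.51, above the floor by 2.46 to 3.10.

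**Figure D5:**
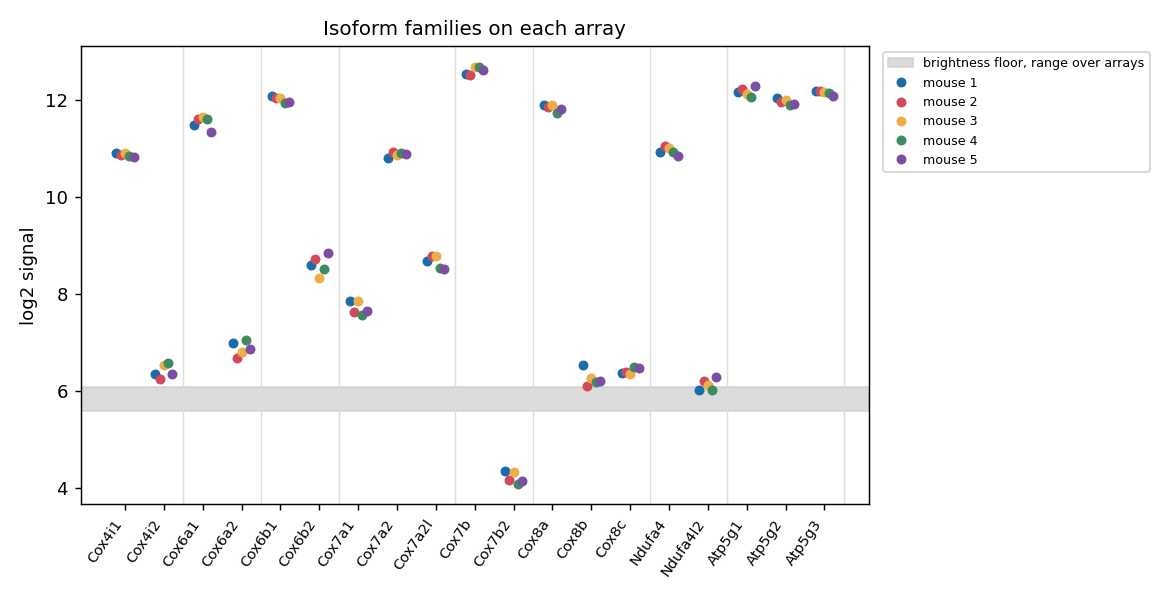
Log2 signal of isoform families, 1 point per mouse, with the grey band giving the range of the brightness floor over the 5 arrays (5.59 to 6.07). Cox7b2 lies below the band, Cox4i2, Cox8b, Cox8c and Ndufa4l2 lie in or just above it, and Cox6b2 and Cox7a1 lie clearly above it. Heights of different genes are not comparable.

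Complex V held the gene with the smallest SD of all subunits. Atp5b, the catalytic beta subunit of the F1 head, was 12.84, 12.86, 12.88, 12.89 and 12.88 in mice 1 to 5, a 1.04-fold span. Atp5a1, the alpha subunit, was 12.28, 12.36, 12.31, 12.29 and 12.18 (SD 0.067), and Atp5c1, the gamma subunit of the rotor, was 12.07, 12.07, 12.06, 12.03 and 11.94 (SD 0.053), both lowest in mouse 5. The epsilon subunit gene Atp5e had the largest spread, at 9.58, 9.63, 9.71, 9.44 and 9.27 (1.36-fold, SD 0.17, limma adjusted p = 0.988). Atp5l (subunit g) was 9.52, 9.66, 9.68, 9.66 and 9.39 (SD 0.13), and Atp5mpl, a small proteolipid subunit, was 10.91, 11.06, 10.93, 11.01 and 10.76 (SD 0.12). Mouse 5 was the lowest in these 3 genes too. Of the other stalk and membrane genes, Atp5h, the d subunit of the stalk, was lowest in mouse 1, at 11.83, 11.96, 11.91, 12.01 and 11.90 (SD 0.065).

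Atp5g1, Atp5g2 and Atp5g3 encode the same mature subunit c of the membrane ring behind different import sequences. Atp5g1 was 12.18, 12.24, 12.13, 12.07 and 12.30, highest in mouse 5 and lowest in mouse 4 (SD 0.09). Atp5g2 was 12.05, 11.97, 12.00, 11.91 and 11.93, highest in mouse 1 (SD 0.057). Atp5g3 was 12.20, 12.19, 12.17, 12.15 and 12.08, lowest in mouse 5 (SD 0.047). Mouse 5 thus held the highest Atp5g1 and the lowest Atp5g3, with spans of 1.17-fold and 1.09-fold, and the variance of neither passed (limma adjusted p = 0.992 and 0.993). Both Atp5g1 probe sets had mouse 5 highest.

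Many of these genes have processed copies elsewhere in the genome, and probe sets of near-identical copies can share signal. Of the 90 genes, 17 had several probe sets, and all probe sets of a gene had the same lowest mouse in 14 of them and the same highest mouse in 8. In the median gene the deviations of its probe sets differed by at most 0.0624. Atp5pb, the b subunit of the peripheral stalk, differed most: its brighter probe set was highest in mouse 4 (11.64) and the dimmer was 10.96 there and 11.16 in mouse 2. Both were lowest in mouse 5, at 11.46 and 10.81. The deviations also differed by up to 0.12 in Ndufa11 and 0.1 in Cox7a2l. The dimmer Cox7a2l probe set was lowest in mouse 4 (7.248), the brighter in mouse 5. The dimmest Atp5md probe set was highest in mouse 4 (12.03), the brightest in mouse 5. Values of Atp5pb, Ndufa11, Cox7a2l and Atp5md, and of the 6 probe sets given several symbols that were left out, are therefore uncertain.

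Of the mitochondrially encoded subunits, 2 had a probe set with exactly 1 symbol. ND3, of complex I, was 12.50, 12.54, 12.69, 12.82 and 12.71 in mice 1 to 5 (SD 0.13, limma adjusted p = 0.969). COX2, of complex IV, was 13.04, 13.05, 13.09, 13.24 and 13.16 (SD 0.085, limma adjusted p = 0.992). In both, mouse 4 was highest and mouse 1 lowest, as in the nuclear genes Ndufv2, Ndufa3, Uqcrb, Atp5b and Atp5h. A difference from the nuclear subunits was not tested.

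Further genes of the pathway were counted from lists, which also hold some genes described above. These are Ndufaf1 to Ndufaf7 under complex I assembly and Cox7a2l under uncoupling and supercomplex genes. None of the 13 tested genes of complex I assembly, 4 of complex II, 6 of complex III, 18 of complex IV and 4 of complex V assembly and inhibition passed the variance test, nor did any at an unadjusted p under 0.05 (limma). Lowest in mouse 5 were 6 of the 13, 1 of the 4, 2 of the 6, 6 of the 18 and 1 of the 4, against 21.6% of all tested genes. The widest were Timmdc1 and Tmem126b of complex I assembly (SD 0.16 each), Sdhaf4 (0.14), Uqcc1 (0.16) and the copper-related factor Cox19 (0.23). Cox19 was 8.44, 8.44, 8.22, 8.11 and 8.72, highest in mouse 5. Atpif1, whose product inhibits ATP synthase when it runs backwards, was 11.26, 11.32, 11.14, 11.25 and 11.55, also highest in mouse 5 (SD 0.15, limma adjusted p = 0.969).

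Electron carriers and entry points, 17 tested, had 0 genes called and 3 at an unadjusted p under 0.05 in the limma fit, against 0.357% and 6.34% of all tested probe sets. Of the 17, 8 were lowest in mouse 5, against 21.6% of all tested genes. Prodh, which feeds electrons from proline into the chain, spanned 1.98-fold from 8.21 in mouse 5 to 9.20 in mouse 1 (SD 0.40, limma adjusted p = 0.273), and Gpd2, the mitochondrial glycerol phosphate dehydrogenase, spanned 1.51-fold (SD 0.24). Of 6 tested uncoupling and supercomplex genes, 0 were called and 2 had an unadjusted p under 0.05 in the limma fit, against the same shares of 0.357% and 6.34%. Slc25a4, an ADP/ATP carrier of heart and muscle, varied most, at 8.73, 8.94, 8.37, 9.50 and 9.90 (2.88-fold, SD 0.61, limma adjusted p = 0.076). Ucp3, an uncoupling protein gene regulated by PPARs, was 7.54, 7.73, 6.80, 6.78 and 6.97 (SD 0.44, limma adjusted p = 0.282).

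Of 14 tested regulators of mitochondrial gene expression, 0 were called and 0 had an unadjusted p under 0.05 in the limma fit. Mouse 5 was lowest in 6 of the 14, against 21.6% of all tested genes. Ppargc1a, which encodes the coactivator PGC-1alpha, was 7.82, 7.74, 7.80, 8.20 and 7.72 (SD 0.20), with mouse 4 apart. Esrra, an estrogen-related receptor gene, was 7.86, 7.81, 7.64, 7.44 and 7.86 (SD 0.18), and Pprc1, a relative of PGC-1alpha, ranged from 6.38 in mouse 4 to 6.91 in mouse 2 (SD 0.21). The tested subunits with the NRF1-type letters in their promoter, of which Ndufs6, Sdha, Cox6a1 and Atp5h are shown above, were lowest in mouse 5 in 8 of 12 cases, and those without in 25 of 54. Their mean deviations in mouse 5 were -0.105 and -0.0685. With the ETS-type letters the counts were 7 of 12 and 26 of 54, and the mean deviations in mouse 5 were -0.13 and -0.063. These are descriptions, and a difference between genes with and without the letters was not tested.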

How the data were processed

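Each array has a log2 signal for every probe set, as the authors deposited it. RMA and Affymetrix Expression Console 1.2 are named in the submitters' processing notes, with no settings or build. RMA is meant to equalise the arrays and compresses differences near background. The medians of the deposited arrays still ranged from 6.22 (mouse 2) to 6.31 (mouse 4).

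Of 35556 probe sets, 21789 had exactly 1 symbol in the platform annotation, and 21698 of these matched RefSeq genes (GRCm38.p6) by gene ID. The variance over mice (4 residual degrees of freedom) was tested in R 4.3.3 with limma 3.58.1 and statmod 1.5.0 against the level trend (prior degrees of freedom 6.21), checked on simulated data. Other steps used Python 3.11.15, numpy 2.4.6 and pandas 2.3.3. Promoters came from RefSeq tables.

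Arrays carry no molecule counts, and their number limits precision. Members and lists were chosen with earlier results of these data known. All members could be named, with values for core subunits, isoforms, and the 3 widest and the narrowest per complex. Of each pathway list up to 3 widest could be named. Alternatives were other normalizations, filters, variance fits and probe set summaries, and each mouse left out.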

Additional observations from a re-analysis of the deposited data

Results flagged for a closer look

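Of the 90 genes and 5 complex averages, 1 had a mouse far from the others for a group of 5: Ndufa11, an accessory subunit of complex I, had a signal of 10.79 in mouse 4, below a range of 10.93 to 10.98 for the rest. Its second probe set was lowest in mouse 4 too (10.01, with 10.07 in mouse 5). Chance marks about 1 in 20 such groups, and the same criterion marked 5.65% of all tested genes.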

How the results depend on the processing

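No member was called under any of the 13 other settings of the variance test with limma, with the smallest adjusted p between 0.45 and 0.985 and 0 to 2 members at an unadjusted p under 0.05. With arrays centred on their medians, the distance between the lowest and highest mouse was 0.179 in complex III, 0.106 in IV and 0.149 in V, instead of 0.115, 0.0429 and 0.108. Under this setting 33 instead of 42 subunits were lowest in mouse 5, and 46 instead of 26 were highest in mouse 2. That count was 9 when each array was set against other genes as bright, so the share highest in mouse 2 depends on the scaling. Complex IV moved by 0.0969 under that scaling (with mouse 2 lowest), by 0.0756 with the median over members and by 0.107 without tissue isoforms. The scaling against genes as bright, the tissue isoforms left out and Ndufa4 counted with complex I were chosen after seeing the data. With the 99th percentile as floor, 3 instead of 6 tissue isoforms exceeded it on all arrays.

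Leaving out each mouse gave distances of 0.108 to 0.162 in complex I, 0.0845 to 0.171 in II, 0.0876 to 0.115 in III, 0.0303 to 0.0429 in IV and 0.046 to 0.111 in V, the lowest values in all 5 complexes but III without mouse 5. It gave 43 to 53 subunits lowest in mouse 5 (no value without that mouse) and 29 to 40 highest in mouse 2, with 40 without mouse 3. With the same probe sets, leaving out another mouse cannot lower these counts, so they are no check of the pattern. In the same way, leaving out the lowest or highest mouse of a complex can only shorten its distance. What set the size of these changes was not tested. No paired analysis was possible because all mice form 1 group.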
